A study of Mus musculus with 15 samples.

Results

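The mitochondrial chromosome of the mouse carries 37 genes, and all of them were described here: 13 that code for proteins, 2 for ribosomal RNAs and 22 for transfer RNAs. They were chosen as every row of the deposited table whose gene symbol begins with mt-, which gave 37 of 45808 rows. RNA came from the emptied cecum of male wild-type C57BL/6 mice, labelled as 20 weeks old. Antibiotic-induced microbiome depletion (AIMD) was produced in 7 mice by gavage of ampicillin, vancomycin, neomycin and metronidazole with the antifungal amphotericin B, while 8 vehicle-treated mice were gavaged with water, both 2 times a day over 30 days. There was no group without gavage, and the whole cecal wall was used, so every layer of the wall contributed RNA.

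The chromosome is a small circle inside the mitochondrion. Both of its strands are copied into long transcripts that run through many genes, and the transfer RNAs that lie between the other genes are cut out to free them. Most of the messenger RNAs then receive short poly-A tails. The messenger RNAs are translated inside the organelle into subunits of respiratory complexes I, III and IV and of ATP synthase. Every other subunit, and every enzyme that copies or reads the chromosome, is encoded in the nucleus. The epithelium of the large intestine is known for burning butyrate, a product of gut bacteria, in its mitochondria.

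Each value is an FPKM: reads of a gene relative to its length and to a scaling number of that mouse, which was not its total of counted reads. The mice were compared as log2(FPKM + 0.5) with limma over the 11983 genes whose FPKM reached 0.5 in 7 mice or more, and a gene was called when its Benjamini–Hochberg adjusted p was under 0.05. Of all genes tested, 16.7% were called lower and 19.4% higher in AIMD mice, and the median log2 fold change was 0.0062. Of the 37 mitochondrial genes, 21 passed the filter on low values, 16 of these were called lower and 0 were called higher. The fold change was below 0 for all 21, with a median of -1.50. The 21 genes lie on the long transcripts of one chromosome and were measured in the same mice, so they are not independent of each other. In pieces of whole tissue, fewer cells rich in mitochondria and less mitochondrial RNA in each cell cannot be told apart.

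The reads behind the FPKM were recovered as whole numbers, with annotated lengths for 68.1% of genes above 0 and with a searched length for nearly all others. Counted on all genes, the reads came to between 8679770 and 18108767 in AIMD mice and between 4372486 and 14406046 in vehicle-treated mice. Vehicle replicate 2 stood apart: the row Yam1 held 1778311 of its reads against 11777 to 98789 in the other mice, and n-R5-8s1, a 5.8S ribosomal RNA of the cytosol, reached an FPKM of 1797 there and 48.5 in the next vehicle-treated mouse. Without this mouse 18 mitochondrial genes were called lower. Clock genes split the mice into 2 sets, with 3 AIMD and 4 vehicle-treated mice in one and 4 and 4 in the other, and the labels do not give the time of sacrifice. Within the second set all 21 mitochondrial genes had a lower mean log2 value in AIMD mice. In the first set 19 were lower, and mt-Ta and mt-Tn were higher by 0.57 and 0.42 on the log2 scale. With the clock genes as a covariate, 16 genes were again called lower.

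Genes of the mitochondrial chromosome took a median of 6.10% of all counted reads in AIMD mice, with a lowest value of 4.28% and a highest of 10.9%. In vehicle-treated mice the median was 15.8%, the lowest 6.92% and the highest 26.2%. The ranges overlapped: 4 of the 7 AIMD mice lay below every vehicle-treated mouse, and 6 of the 8 vehicle-treated mice lay above every AIMD mouse. The lowest vehicle-treated mouse was replicate 2. Yam1 took 12.3% of the reads in that mouse, and its part in the low share was not tested. Counting error was small beside the spread between mice, with 95% Wilson intervals of 4.27% to 4.29% in the lowest mouse and 26.16% to 26.23% in the highest, and these intervals cover counting error only. No test was made of this share, since it sums over genes chosen with earlier results known.

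**Figure D1:**
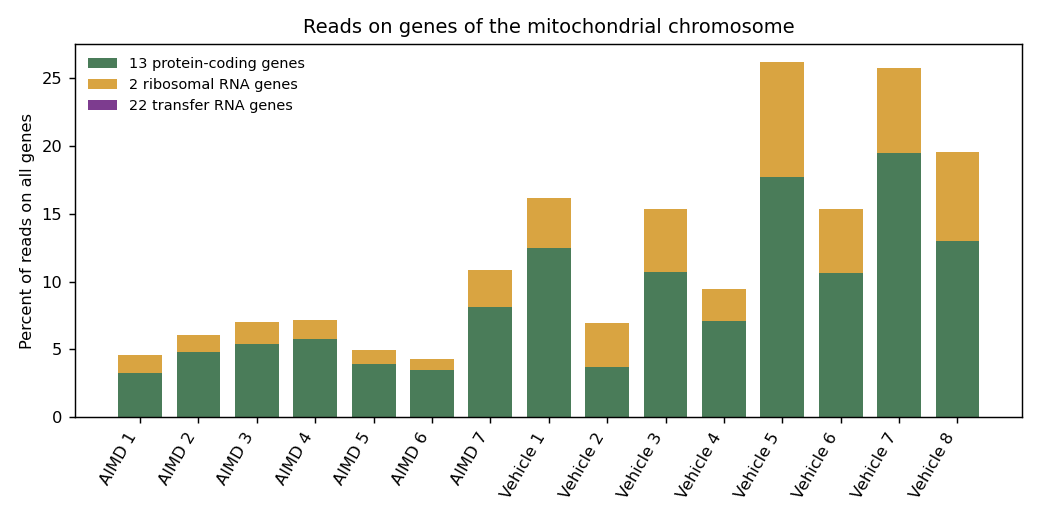
Percent of all counted reads (y axis) on the protein-coding, ribosomal RNA and transfer RNA genes of the mitochondrial chromosome in each mouse (x axis, stacked bars). The AIMD mice reached at most 10.9%, and 6 of the 8 vehicle-treated mice stood above that, up to 26.2%; the transfer RNAs, at most 0.013%, are too few to be seen.

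By class, protein-coding genes held a median of 4.84% of counted reads in AIMD mice against 11.6% in vehicle-treated mice, and ribosomal RNA genes held 1.30% and 4.67%. The 22 transfer RNA genes together held a median of 0.0024% and 0.0085%. Transfer RNAs are short and mostly lack the poly-A tail by which these libraries were selected. Within the mitochondrial reads alone, ribosomal RNAs made up a median of 21.0% in AIMD mice (17.9% to 28.4%) and 30.4% in vehicle-treated mice (22.7% to 46.3%), with the highest value in vehicle replicate 2. These proportions overlapped between the groups.

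The 2 ribosomal RNAs, which form the core of the small and the large subunit of the mitochondrial ribosome, lie near each other just after the start of the plus-strand transcript. For mt-Rnr1, the small-subunit RNA (chromosome M, 70 to 1024, GRCm38), the lowest, median and highest FPKM were 2452, 4402 and 9449 in AIMD mice against 8044, 18629 and 42961 in vehicle-treated mice. Only the highest AIMD mouse, replicate 7, reached into the vehicle range. The log2 fold change came to -2.10 (standard error 0.34, adjusted p from limma = 0.000211), and the vehicle mean was 4.49 times the AIMD mean (22555 ± 11634, SD, n = 8, against 5028 ± 2230, n = 7). For mt-Rnr2, the large-subunit RNA (1094 to 2675), the values were 2660, 5039 and 9747 in AIMD mice against 7906, 19206 and 41136 in vehicle-treated mice. Again 6 of 7 AIMD mice lay below every vehicle-treated mouse. The log2 fold change came to -1.92 (standard error 0.32, adjusted p = 0.000281). Both stayed called under every alternative tried.

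**Figure D2:**
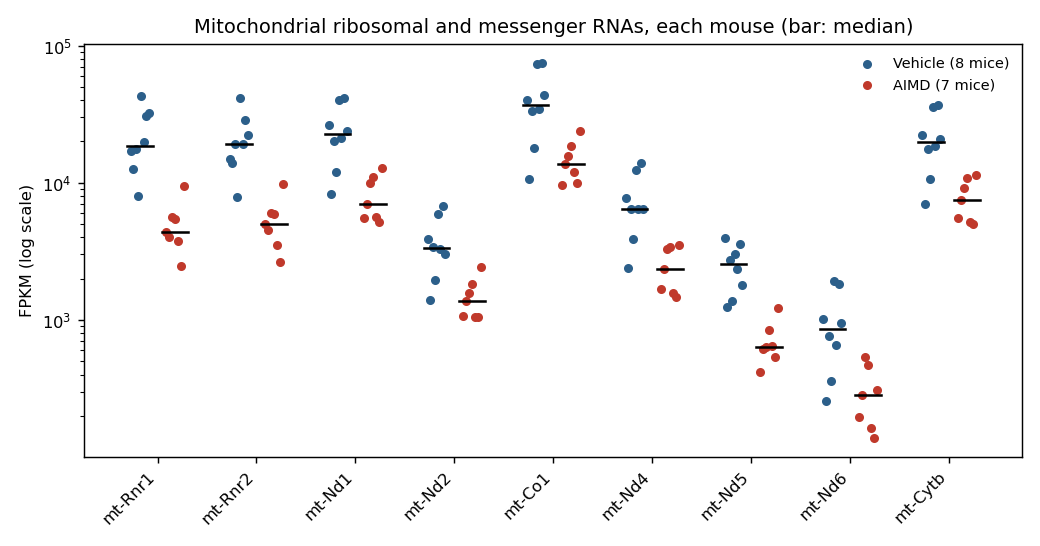
FPKM on a log scale (y axis) of the 2 ribosomal RNAs and the 7 protein-coding genes that passed the filter, in each vehicle-treated mouse (blue, n = 8) and AIMD mouse (red, n = 7), with the group median as a bar. Every red median lies below its blue median, and the colours separate without overlap for mt-Nd5, where the highest AIMD mouse was at 1223 and the lowest vehicle-treated mouse at 1236.

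All 7 protein-coding genes that passed the filter were called lower, with log2 fold changes from -1.80 to -1.22. Complex I, the NADH dehydrogenase that feeds electrons into the chain, supplied 5 of them. Its gene mt-Nd5 (11742 to 13565) encodes one of the proton-pumping subunits and moved most. The lowest, median and highest FPKM of mt-Nd5 were 414, 632 and 1223 in AIMD mice against 1236, 2540 and 3937 in vehicle-treated mice. Every AIMD mouse was below every vehicle-treated mouse, which held for 3.30% of all genes tested. The log2 fold change came to -1.80 (standard error 0.27, adjusted p from limma = 0.000115) and stayed from -1.95 to -1.69 when single mice were left out.

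Another complex I gene, mt-Nd1 (2751 to 3707), the first protein-coding gene after the ribosomal RNAs, encodes a subunit at the quinone-binding end. Its lowest, median and highest FPKM were 5157, 6957 and 12716 in AIMD mice against 8346, 22598 and 41665 in vehicle-treated mice, and 4 AIMD mice lay below the vehicle range (log2 fold change -1.49, standard error 0.33, adjusted p from limma = 0.00266). For mt-Nd4 (10167 to 11544), a proton-pumping subunit, the values were 1460, 2362 and 3514 in AIMD mice against 2392, 6458 and 13884 in vehicle-treated mice, and 7 of the 8 vehicle-treated mice stood above every AIMD mouse (log2 fold change -1.50, standard error 0.34, adjusted p = 0.00281). The proton-pumping subunit gene mt-Nd2 (3914 to 4951) ran from 1049 through 1373 to 2429 in AIMD mice, and from 1399 through 3342 to 6743 in vehicle-treated mice, with overlap (log2 fold change -1.22, standard error 0.30, adjusted p = 0.00513). In all 7 protein-coding genes the lowest vehicle-treated mouse was replicate 2, whereas in both ribosomal RNAs it was replicate 4.

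The fifth complex I gene, mt-Nd6 (13552 to 14070), is the protein-coding gene annotated on the other strand. Its FPKM was the lowest of the 7, at 138, 285 and 540 in AIMD mice against 258, 861 and 1934 in vehicle-treated mice. The groups overlapped, and the log2 fold change came to -1.57 (standard error 0.41, adjusted p from limma = 0.00742). These libraries were selected by the poly-A tail, and whether mt-Nd6 RNA carries one was not examined here. Its level is therefore not comparable with those of the other genes. Complex III takes 1 subunit from this chromosome, cytochrome b, encoded by mt-Cytb (14145 to 15288), the last protein-coding gene of the plus strand. Its FPKM was 4990, 7428 and 11353 in AIMD mice against 6945, 19677 and 36711 in vehicle-treated mice, again with overlap (log2 fold change -1.33, standard error 0.33, adjusted p = 0.00532).

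Complex IV, cytochrome c oxidase, takes 3 subunits from this chromosome, and only mt-Co1, the catalytic subunit (5328 to 6872), passed the filter. Among the 37 genes, 11 of which were not measurable here, it had the highest FPKM in both groups. Its values were 9604, 13753 and 23936 in AIMD mice against 10684, 37138 and 74962 in vehicle-treated mice. Only 2 AIMD mice lay below the lowest vehicle-treated mouse, while 6 vehicle-treated mice lay above every AIMD mouse (log2 fold change -1.30, standard error 0.37, adjusted p from limma = 0.0120). Quantile normalization, which forces all mice to the same distribution of values, left 4 of the 7 protein-coding genes called: mt-Co1, mt-Nd1 and mt-Cytb, the 3 with the highest FPKM, moved to -0.35, -0.45 and -0.34 and were no longer called. With no filter on low values, mt-Co1 and mt-Cytb kept their fold changes and lost their calls, at adjusted p of 0.147 and 0.0613.

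**Figure D3:**
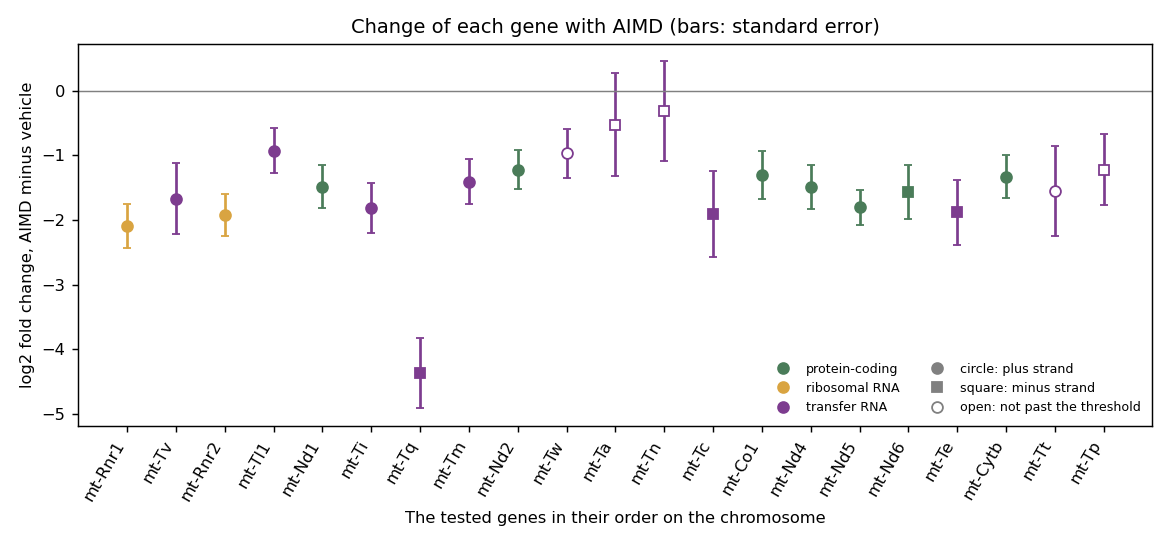
The log2 fold change of AIMD against vehicle (y axis, bars show the standard error) for the 21 tested genes in their order along the chromosome (x axis), by class (colour) and strand (circle or square), with genes that were not called drawn open. All 21 points lie below 0, and mt-Tq, at -4.37, lies far below its neighbours mt-Ti and mt-Tm.

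The other 6 protein-coding genes had almost no reads. They were mt-Co2 and mt-Co3 of complex IV, mt-Atp8 and mt-Atp6, the 2 subunits of ATP synthase that the chromosome supplies, and mt-Nd3 and mt-Nd4l of complex I. Over all 15 mice, mt-Co2 held 1 read, mt-Co3 held 7 and the other 4 held 0, whereas mt-Co1 alone held 5584389. For mt-Atp6, a count of 0 allows up to 3 reads, an FPKM between 0.232 and 1.01 depending on the mouse. This limit covers counting error only and sets no bound on expression, since the gene has a near-perfect nuclear copy, described next.

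These 6 genes stand together on a stretch of the chromosome that has a near-perfect copy in the nucleus. GENCODE M21 annotates 7 pseudogenes side by side between 24611535 and 24616197 of chromosome 1 (GRCm38), all on the minus strand. Their order is that of the genes between positions 6381 and 11042 of chromosome M, and their spacings are the same to within 1 base. Over the 4149 bases that the 7 pairs of transcripts share, 7 bases differ. Shown here are the first bases of mt-Co2, which its copy Gm28661 holds without a difference, and the start of mt-Nd3 beside its copy Gm28438, whose single difference (T3C, counted from the first base of mt-Nd3) is in capitals.
mt-Co2 and Gm28661: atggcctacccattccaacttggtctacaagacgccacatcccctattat
mt-Nd3: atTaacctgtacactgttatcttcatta
Gm28438: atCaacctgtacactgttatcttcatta
All 3 lines are transcript sequence of GENCODE M21 on GRCm38.

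Reads in these libraries were 50 bases long, so each gene was cut into all of its 50-base windows. For mt-Co2 100% of the windows also occur in annotated nuclear transcripts, for mt-Co3 99.9%, for mt-Atp6 99.5%, for mt-Nd4l 98.8% and for mt-Nd3 98.0%. A read from such a window fits the nucleus and the mitochondrion equally well. The share was 62.2% for mt-Nd4, 51.1% for mt-Co1, 8.2% for mt-Nd2, 7.6% for mt-Nd5, 1.0% for mt-Rnr2 and 0% for mt-Nd1, mt-Nd6, mt-Cytb and mt-Rnr1. In mt-Atp8 it was also 0%, but mt-Atp8 lies inside the copied stretch at a place where no pseudogene is annotated, and the nuclear sequence there was not analysed here. Of the 37 genes, 11 lie wholly inside this stretch, 6 of them protein-coding and 5 transfer RNA genes (mt-Ts1, mt-Td, mt-Tk, mt-Tg and mt-Tr). Together they held 13 of the 15853754 mitochondrial reads, and 8 of the 11 were at 0 in every mouse, against 2 of the 24 genes wholly outside. How reads with several equally good positions were counted is not given in the sources used here, so a low value of these 11 genes is no measure of their expression. mt-Co1 and mt-Nd4 lie partly inside the stretch.

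**Figure D4:**
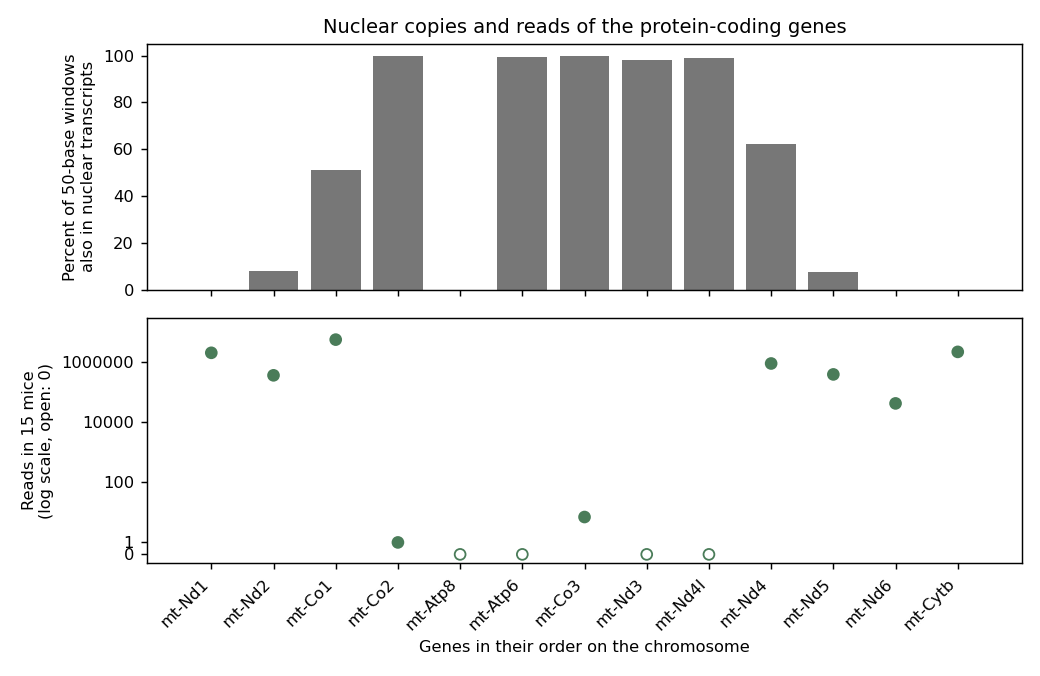
For the 13 protein-coding genes in chromosome order (x axis), the upper panel gives the percent of 50-base windows that also occur in nuclear transcripts, and the lower panel the reads summed over 15 mice on a log scale, with open circles for 0. The 5 genes at 98.0% or more held at most 7 reads, mt-Atp8 held 0 reads at 0%, and the other 7 genes held between 42184 and 5584389.

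The copies themselves held few reads. Of 14 annotated nuclear copies in the table, 9 held at most 10 reads in any mouse and were not tested. Gm13340, a copy of mt-Co1 on chromosome 2, held 69 to 249 reads in AIMD mice against 98 to 519 in vehicle-treated mice. Its neighbour Gm13341, a copy of mt-Co2, held 62 to 213 and 103 to 340 reads. Both were called lower in AIMD mice, with log2 fold changes of -1.50 (standard error 0.43, adjusted p from limma = 0.0128) and -1.62 (standard error 0.36, adjusted p = 0.00256). Of the 5 copies tested, 4 were called lower and 0 higher, beside 16.7% and 19.4% of all genes tested. Over the bases compared, Gm13340 was 97.61% identical to mt-Co1, and Gm28661 was 100% identical to mt-Co2. Whether the reads of the copies came from the nucleus or from the mitochondrion was not tested. Adding the copies to the mitochondrial reads left the median share at 6.10% in AIMD mice against 15.8% in vehicle-treated mice.

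Where the copied windows give no reads to a gene, its FPKM understates its level, because the whole length stays in the divisor. Dividing instead by the windows found in no nuclear transcript, the vehicle median was 78493 for mt-Co1, 23818 for mt-Nd1, 20557 for mt-Cytb, 20029 for mt-Rnr2, 19637 for mt-Rnr1, 17728 for mt-Nd4, 3820 for mt-Nd2, 2824 for mt-Nd5 and 951 for mt-Nd6. The order of these 9 medians was the same by FPKM, but mt-Nd4 came close to mt-Rnr1 on this scale, whereas by FPKM its median of 6458 was well under the 18629 of mt-Rnr1. From mt-Nd1 to mt-Rnr1 the medians lay far closer to each other than the lowest and highest mouse of any one gene, so the order among mt-Nd1, mt-Cytb, mt-Rnr2 and mt-Rnr1 was within the spread between mice. The fold changes between groups do not depend on the divisor.

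Transfer RNA genes are about as long as a read is, so few reads can lie wholly within one: mt-Ti, for example, has 20 windows of 50 bases. Of the 22 genes, 6 were at 0 in every mouse (mt-Ty, mt-Ts1, mt-Td, mt-Tk, mt-Tg and mt-Th) and 4 held 1 to 5 reads in all and were not tested (mt-Tf, mt-Tr, mt-Ts2 and mt-Tl2). Of the 12 tested, 7 were called lower and 0 higher. Of the 21 tested genes of the chromosome, mt-Tq, the transfer RNA for glutamine, had the largest change. It is annotated on the minus strand (3772 to 3842), between mt-Ti (3706 to 3774) for isoleucine and mt-Tm (3845 to 3913) for methionine, both on the plus strand. The ends of mt-Ti and mt-Tq overlap on opposite strands, as do those of mt-Nd5 and mt-Nd6. The libraries were stranded, but whether the counting used strand is not given in the sources used here, so for minus-strand genes such as mt-Tq and mt-Nd6 reads of the opposite strand cannot be told apart. The 3 sequences are given as DNA of the transcript in GENCODE M21, with the anticodon in capitals.
mt-Ti: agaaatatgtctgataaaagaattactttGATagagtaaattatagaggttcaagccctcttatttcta
mt-Tq: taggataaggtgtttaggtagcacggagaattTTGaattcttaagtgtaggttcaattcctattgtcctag
mt-Tm: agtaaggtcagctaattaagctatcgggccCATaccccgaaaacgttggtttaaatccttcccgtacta
No 50-base window of these 3 genes occurs in an annotated nuclear transcript.

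AIMD replicates 1 to 7 held 0, 4, 9, 7, 2, 1 and 6 reads of mt-Tq, and vehicle replicates 1 to 8 held 71, 39, 51, 27, 40, 49, 43 and 19. The groups did not overlap, although the AIMD libraries were in general the deeper ones. As FPKM, mt-Tq was 0, 4.70 and 11.8 (lowest, median and highest) in AIMD mice against 34.2, 83.4 and 136 in vehicle-treated mice. This gave a log2 fold change of -4.37 (standard error 0.54, adjusted p from limma = 1.97e-05). For mt-Tq it stayed from -4.66 to -3.90 when single mice were left out, and limma voom on the recovered reads gave -4.42.

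Its neighbours changed less. For mt-Ti, with 81 to 617 reads a mouse, the FPKM was 87.4, 180 and 402 in AIMD mice against 264, 798 and 1365 in vehicle-treated mice, and the groups overlapped (log2 fold change -1.82, standard error 0.39, adjusted p from limma = 0.00189). For mt-Tm the FPKM was 11.0, 24.2 and 54.1 in AIMD mice against 37.8, 74.9 and 138 in vehicle-treated mice, with overlap too (log2 fold change -1.41, standard error 0.35, adjusted p = 0.00504). For every 100 reads of mt-Ti, AIMD mice had 0 to 3.03 reads of mt-Tq and vehicle-treated mice 6.97 to 17.2, without overlap. By contrast, reads of mt-Tm per 100 of mt-Ti were 10.6 to 20.8 and 8.27 to 14.6. These 2 ratios were chosen after the values were seen and were not tested.

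**Figure D5:**
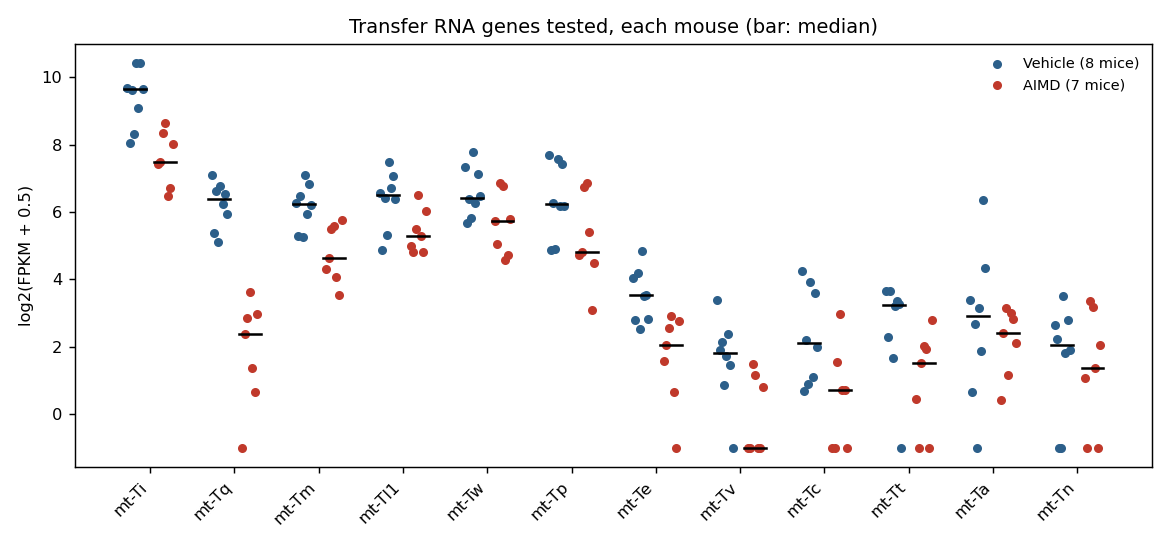
Log2(FPKM + 0.5) (y axis) of the 12 transfer RNA genes tested, in each vehicle-treated mouse (blue, n = 8) and AIMD mouse (red, n = 7), with group medians as bars; a point at the bottom is a mouse listed at 0. For mt-Tq the highest AIMD mouse, at an FPKM of 11.8, lies below the lowest vehicle-treated mouse, at 34.2, and in the other 11 genes the groups overlap.

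In log2 fold change, the other called transfer RNAs were mt-Te for glutamate (-1.88, standard error 0.50, adjusted p from limma = 0.00804), mt-Tc for cysteine (-1.91, 0.66, adjusted p = 0.0320), mt-Tv for valine (-1.67, 0.55, adjusted p = 0.0258) and mt-Tl1, a leucine transfer RNA (-0.93, 0.35, adjusted p = 0.0475). All 4 overlapped between the groups. In mt-Te, mt-Tc and mt-Tv no mouse held more than 10 reads. Not called were mt-Tw for tryptophan (-0.97, 0.38, adjusted p = 0.0534), mt-Tp for proline (-1.23, 0.55, adjusted p = 0.0896), mt-Tt for threonine (-1.55, 0.69, adjusted p = 0.0896), mt-Ta for alanine (-0.52, 0.80, adjusted p = 0.638) and mt-Tn for asparagine (-0.32, 0.77, adjusted p = 0.771). The count of 7 called transfer RNAs fell to 4 without AIMD replicate 1, AIMD replicate 2 or vehicle replicate 1, with no filter on low values, and with the exact rank-sum test, and it was 9 without AIMD replicate 4 or vehicle replicate 2. Of the 38 tested nuclear genes in a list of RNAs without a poly-A tail, 7 were called lower and 2 higher, with a median log2 fold change of -0.35, a share of lower genes near the 16.7% of all genes tested. Their summed FPKM was 578 to 907 in AIMD mice against 889 to 3324 in vehicle-treated mice, and its part in the result was not tested. Snord118, the U8 small nucleolar RNA, was at an FPKM of 10.5 to 81.0 in AIMD mice and at 82.1 to 213 in vehicle-treated mice (log2 fold change -2.40, standard error 0.37, adjusted p = 0.000138).

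By strand, 12 of 14 tested genes annotated on the plus strand were called lower, with a median log2 fold change of -1.49, and 4 of 7 on the minus strand, with a median of -1.57. Of all genes tested, 16.7% were called lower. The minus-strand genes tested were mt-Nd6 and transfer RNAs, while the ribosomal RNAs and the other tested protein-coding genes lie on the plus strand. The strands thus differ in reads per gene, and their counts were not compared by a test. To see whether genes of the chromosome moved by the same amount, the log2 ratio of 4 pairs of genes, 3 on the plus strand and 1 across the strands, was tested by two-sided exact permutation over 6435 splits, with p adjusted over the 4 pairs. Between the last and the first protein-coding gene of the plus strand the ratio differed: log2 of mt-Cytb over mt-Nd1 had a median of -0.047 in AIMD mice (-0.16 to 0.094) and -0.20 in vehicle-treated mice (-0.27 to -0.16). The mean ratio was higher in AIMD mice by 0.15 (exact p = 0.000311, adjusted p = 0.00124), and 1 AIMD mouse reached into the vehicle range. Within the 2 sets set apart by clock genes the difference was 0.21 and 0.105, without overlap in either.

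The other 3 ratios were not past the threshold. The ratio of mt-Nd1 to mt-Rnr2, messenger against ribosomal RNA on the 2 sides of mt-Tl1, had a mean that was 0.44 higher in AIMD mice (exact p = 0.0521, adjusted p = 0.0713), with 0.30 and 0.54 in the 2 clock sets. The ratio of mt-Rnr2 to mt-Rnr1 was 0.18 higher (exact p = 0.0535, adjusted p = 0.0713), with 0.14 and 0.22. The ratio of mt-Nd6 to mt-Cytb, neighbours on opposite strands, differed by -0.24 (exact p = 0.174, adjusted p = 0.174), with 0.11 in one clock set and -0.53 in the other. Leaving out vehicle replicate 2 took the difference for the ribosomal RNAs to 0.21 (exact p = 0.0186), and leaving out AIMD replicate 3 took that for mt-Nd6 to mt-Cytb to -0.36 (exact p = 0.0250).

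The counts for nuclear genes that serve the chromosome are to be read against the shares of all genes tested, 16.7% called lower and 19.4% called higher, and single genes of these lists are given as values. Of 12 genes for copying its DNA and supplying nucleotides, 2 were called lower and 0 higher, with a median log2 fold change of -0.019, and the count of lower genes was 4 without vehicle replicate 8 and 1 without AIMD replicate 3, 4, 5 or 6 or vehicle replicate 3 or 4. Top1mt, the mitochondrial topoisomerase, was at an FPKM of 1.04 to 2.05 in AIMD mice and at 2.98 to 5.64 in vehicle-treated mice, without overlap (log2 fold change -1.19, standard error 0.15, adjusted p from limma = 2.04e-05). Of 9 transcription genes, 2 were called lower and 0 higher, with a median of -0.23. These were Mterf1a (-0.80, standard error 0.17, adjusted p = 0.00153) and its near copy Mterf1b (-0.77, 0.20, adjusted p = 0.00615), which encode a factor that binds within the gene mt-Tl1 and can stop transcription there, and reads may be shared between them. Polrmt, the RNA polymerase of the mitochondrion, was not called (-0.26, adjusted p = 0.262), and neither was Tfam, which packs the DNA and starts transcription (0.30, adjusted p = 0.0933).

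Of 32 genes that cut, modify, tail or degrade mitochondrial RNA, 6 were called higher and 4 lower, both shares under those of all genes tested, with a median log2 fold change of 0.097, and 1 was called lower without AIMD replicate 6 or 7 or vehicle replicate 1, or 2 without AIMD replicate 1, 2 or 4 or vehicle replicate 2, 3 or 6. Supv3l1, a helicase of the RNA-degrading complex, was at an FPKM of 3.15 to 6.76 in AIMD mice and at 1.23 to 3.21 in vehicle-treated mice (log2 fold change 0.99, standard error 0.18, adjusted p from limma = 0.000595). Fastkd1, an RNA-binding protein of the organelle, rose by 0.75 (0.15, adjusted p = 0.000876) without overlap. Mtpap, the poly-A polymerase of mitochondrial messenger RNAs, rose by 0.49 (0.14, adjusted p = 0.0130), also without overlap, and Elac2, which cuts the 3′ ends of transfer RNAs, rose by 0.56 (0.19, adjusted p = 0.0287). Rnmtl1 rose by 0.70 (0.22, adjusted p = 0.0220) and Ftsj2 fell by 0.68 (0.235, adjusted p = 0.0323), both with overlap. Lrpprc and Slirp, which together stabilize the messenger RNAs, were not called, at -0.13 (adjusted p = 0.441) and -0.51 (adjusted p = 0.0841). Mtpap, Elac2, Lrpprc, Slirp, Polrmt and Tfam are named for their roles, after their values were seen.

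Of 22 nuclear genes for loading the transfer RNAs, 4 were called higher and 1 lower, or 2 lower without vehicle replicate 6. Nars2, for asparagine, rose by 0.75 (standard error 0.14, adjusted p from limma = 0.000652), and Ears2, for glutamate, fell by 0.52 (0.16, adjusted p = 0.0169). Lars2, for leucine, was at an FPKM of 37.5 to 82.0 in AIMD mice and at 41.5 to 126 in vehicle-treated mice other than replicate 2, which was at 3861, and it is named after its values were seen. Of 9 regulators of mitochondrial biogenesis, 3 were called higher and 0 lower, and these were the genes of the GA-binding protein, Gabpa, Gabpb1 and Gabpb2. Gabpb2 rose by 0.91 (0.12, adjusted p = 4.71e-05), without overlap. Without AIMD replicate 1, 5, 6 or 7 or vehicle replicate 1, 1 of the 9 was called. Of 14 translation factors, 2 were called higher and 0 lower, 1 higher in 11 of the 15 fits that left out a mouse, and 2 lower without vehicle replicate 8.

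Among 19 nuclear genes that mark the amount of mitochondria, 1 was called higher and 0 lower, with a median log2 fold change of 0.078, beside -1.49 for the 7 called protein-coding genes of the chromosome and 0.0062 for all genes tested. Cs, the citrate synthase, was at an FPKM of 124 to 168 in AIMD mice and at 112 to 188 in vehicle-treated mice (log2 fold change 0.0014, adjusted p from limma = 0.993), and is named after its values were seen. Slc25a5, a carrier of ADP and ATP, was the gene that rose, by 0.87 (standard error 0.14, adjusted p = 0.000185). The count was 2 higher without AIMD replicate 4 or vehicle replicate 2 or 5, and 2 lower without vehicle replicate 8. Scaled by the total of all reads, which moved the median of all genes to 0.18, 7 of these 19 genes were called higher, while 15 genes of the chromosome were still called lower.

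Counts for the nuclear subunits that join the proteins of the chromosome differed between complexes with all mice, and changed when single mice were left out. They too are to be read against the 16.7% called lower and 19.4% called higher of all genes tested. In complex I, 10 of 36 were called lower and 2 higher, with a median log2 fold change of -0.44, and the count of lower genes was 19 without vehicle replicate 8 and 6 without AIMD replicate 5 or 6 or vehicle replicate 1. A count of 6 is near the share of all genes tested. In complex IV, 6 of 13 were called lower and 0 higher, with a median of -0.57, or 3 without AIMD replicate 1, 5, 6 or 7 or vehicle replicate 1 or 3. A count of 3 is closer to the share of all genes tested. Cox7a1, a form of a complex IV subunit known from muscle, was at -1.44 (standard error 0.30, adjusted p from limma = 0.00149).

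In complex III, 4 of 9 nuclear subunits were called higher and 1 lower, with Uqcrc2, a core subunit, at 0.78 (standard error 0.14, adjusted p from limma = 0.00049). Without AIMD replicate 1, 2, 3, 5 or 6 or vehicle replicate 6, 7 or 8, 2 were called higher, and without vehicle replicate 8 the count of lower genes was 3, or 2 without AIMD replicate 3. A count of 2 higher is near the 19.4% called higher of all genes tested. In ATP synthase, 3 of 16 were called higher and 4 lower, or 2 lower without AIMD replicate 1, 5, 6 or 7 or vehicle replicate 1, 5 or 7. The share called higher was near the 19.4% of all genes tested. Atp5b, the catalytic beta subunit, rose by 1.00 (0.19, adjusted p = 0.000754) and Atp5k, a small membrane subunit, fell by 0.83 (0.24, adjusted p = 0.0135).

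Markers of the cell types of the cecal wall moved by unequal amounts between the groups, and their part in the change of the mitochondrial genes was not tested. Their counts are to be read against the 16.7% called lower and 19.4% called higher of all genes tested. With all mice, the epithelial, smooth muscle, immune, and fibroblast and endothelium counts were near or under these shares. Epithelial markers were high in all mice, with a summed FPKM of 6212 to 9766 in AIMD mice and of 5619 to 7831 in vehicle-treated mice. Of 10 epithelial markers, 2 were called higher (Krt8 and Vil1) and 1 lower (Krt18), with a median log2 fold change of 0.38. Their count of higher genes was 4 without vehicle replicate 2 and 7 when scaled by the total of all reads, and it was 1 without AIMD replicate 1, 2, 3, 5 or 6 or vehicle replicate 3, 4, 5, 6 or 7, while 2 were called lower without AIMD replicate 4. Neuron and glia markers summed to 3.47 to 6.65 in AIMD mice and to 5.83 to 91.3 in vehicle-treated mice, and 6 of 7 tested were called lower, or 3 without any single one of vehicle replicates 2, 4, 5, 6, 7 and 8. Smooth muscle markers summed to 230 to 844 and 543 to 3185, with 2 of 10 called lower, or 5 and 4 without vehicle replicates 3 and 5. Red blood cell markers summed to 23.0 to 62.5 and 34.6 to 124, with 2 of 5 called lower. That count was 3 without AIMD replicate 2 or vehicle replicate 5, and 1 without AIMD replicate 1, 3, 4, 5 or 7 or vehicle replicate 1, 2, 4, 6 or 7. Immune cell markers summed to 62.2 to 247 and 46.5 to 98.4, with 2 of 10 called higher and 1 lower. The lower call was lost without AIMD replicate 1, 2, 3, 5 or 6 or vehicle replicate 1, 3, 4, 6 or 8, and 3 were called lower without AIMD replicate 7. Fibroblast and endothelium markers summed to 39.1 to 90.3 and 31.8 to 126, with 1 of 9 called in each direction. The higher call was lost without AIMD replicate 1, 2, 5, 6 or 7 or vehicle replicate 1, 2, 3 or 6, and the lower call without AIMD replicate 1, 2, 3, 4 or 5 or vehicle replicate 4, 5, 6, 7 or 8. Without vehicle replicate 8, which had the highest values of the neuron markers Tubb3 and Uchl1, 16 mitochondrial genes were called lower.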

How the data were processed

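Poly-A selected, stranded libraries of 50-base single reads were mapped by the authors to GRCm38 with STAR and counted per gene with featureCounts and GENCODE annotation; the authors deposited FPKM for each mouse and used DESeq2 with time of sacrifice for their own tests. How the FPKM were made, and whether counting used strand or reads with several positions, is not given in the sources used here. Whole reads were recovered from the FPKM steps with GENCODE M21 lengths (tolerance 0.02 reads) for all 27 mitochondrial genes above 0 and, over the table, for 68.1% of 24279 genes, with another length serving for all others but 1. That other length was searched for until the values were whole, so wholeness does not show that those counts are right. FPKM were rescaled by size factors (median of ratios, 13594 genes), and log2(FPKM + 0.5) was fitted in limma 3.58.1 under R 4.3.3 (two-sided, variance trend), which was tested on simulated data. The size factors came to 1.01 in every mouse, so the rescaling changed almost nothing. Without it 4319 genes were called, against 4320 with it. Ratios were compared by exact permutation, whose smallest p is 0.000155. Windows and figures used Python 3.11.15. FPKM fold changes understate changes of low genes. Nothing in the labels says that mice were pooled. All 37 genes, and up to 4 called genes of each list, were to be named. Genes, lists and tests were chosen with earlier results of these data known. Alternatives were other scalings, filters, pseudocounts and tests, a clock-gene covariate, a replicate block and each mouse left out.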

Additional observations from a re-analysis of the deposited data

Results flagged for a closer look

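In 134 groups of 7 or 8 mice (67 genes, ratios and shares in each treatment), 9 highest or lowest mice stood apart from the rest by Dixon's test at 95%, and chance alone gives about 1 in 20 groups. Among genes of the mitochondrial chromosome, mt-Ta was at an FPKM of 81.9 in vehicle replicate 7, with the next vehicle-treated mouse at 19.9, and mt-Tc was at 7.28 in AIMD replicate 4, with the next AIMD mouse at 2.39. Vehicle replicate 2 was highest for Lars2, at 3861, and for n-R5-8s1, at 1797. Vehicle replicate 8 was highest for Tubb3, at 20.2, Uchl1, at 41.3, and Tagln, at 1136, which mark neurons, neurons and smooth muscle, and lowest for Uqcrc2, at 99.85. Nars2 was highest in vehicle replicate 5, at 2.62.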

How the results depend on the processing

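Each gene was refitted under 28 alternatives. Of the 588 results for the 21 tested genes of the chromosome, 535 kept their direction and their side of the threshold, 38 lost a call, 13 gained one and 2 changed sign. Of the 16 genes called lower, 10 kept their call under every alternative: mt-Rnr1, mt-Rnr2, mt-Nd2, mt-Nd4, mt-Nd5, mt-Nd6, mt-Ti, mt-Tq, mt-Tm and mt-Te. The mt-Tn log2 fold change, which was not called, turned to 0.0581 without AIMD replicate 2 and to 0.0597 without AIMD replicate 6, and ranged from -0.694 to 0.0597 over the mice left out. The number of mitochondrial genes called lower was 11 with no filter, 13 with quantile normalization or the exact rank-sum test, 15 when scaled by all reads, 16 with a replicate block, and 13 to 18 with each mouse left out. No label says that replicate numbers pair the mice: same-numbered mice correlated between -0.35 and 0.43, and the replicate block moved the number of all genes called from 4320 to 4621. The numbers do follow the clock-gene sets: AIMD replicates 1 to 3 and vehicle replicates 1 to 4 formed the first set, and the higher numbers the second.

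With each mouse left out, all genes called ranged from 3506 to 4616, and the share of counted reads on the mitochondrial chromosome (AIMD minus vehicle) from -11.8 to -9.08 percentage points, against -10.4 with all mice and -6.87 for protein-coding genes alone. The difference between groups (AIMD minus vehicle) in the mean log2 ratio of mt-Cytb to mt-Nd1 stayed between 0.13 and 0.17, that of mt-Rnr2 to mt-Rnr1 between 0.11 and 0.21, that of mt-Nd1 to mt-Rnr2 between 0.30 and 0.53, and that of mt-Nd6 to mt-Cytb between -0.36 and -0.17. The unadjusted exact p went under 0.05 for mt-Rnr2 to mt-Rnr1 without AIMD replicate 5 or vehicle replicate 2 or 3, for mt-Nd6 to mt-Cytb without AIMD replicate 3, and for mt-Nd1 to mt-Rnr2 without AIMD replicate 1 or 7 or vehicle replicate 1, 4 or 7, and also with medians in place of means, at a difference of 0.54. The cause was not tested. Depth limits the transfer RNAs with under 10 reads a mouse, and the 11 genes inside the copied stretch were not measurable here.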
